A study of Mus musculus with 4 samples.

Results

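Neutrophils of orthotopic CT26 tumors were the 998 cells that carried the authors' cluster name Neutrophils, of 17674 cells in all, 551 of the 10484 from Cyp51-KO tumors and 447 of the 7190 from sg-Ctrl tumors. CT26 is a mouse colorectal cancer line, here grown in the colon of BALB/c mice. The groups were compared to learn how loss of Cyp51 in the tumor cells, which removes an enzyme of cholesterol synthesis, goes with changes in the immune cells around them. In the Cyp51-KO group the line carried a guide against Cyp51 and in the sg-Ctrl group a control guide, both marked by BFP, and the hosts and their neutrophils were unedited. Tumors were taken at day 26, and cells came from 12 tumors of sg-Ctrl and from 9 of Cyp51-KO, with 2 samples per group. The cells were sorted into BFP+ tumor cells lacking CD45, T cells carrying CD45 and CD3, and bulk CD45+ leukocytes. These were mixed again in set parts and sequenced with a 5' droplet kit, so shares of all cells describe that mix. The reference cells were the other 4 myeloid clusters, named Macrophage (576 cells), Monocyte (861 cells), Mast_cell (574 cells) and cDC (138 cells).

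Neutrophils are short-lived granulocytes that leave the bone marrow as nearly finished cells, are drawn to inflamed tissue and tumors by chemokines, and kill microbes with granule proteins, oxidants and extruded chromatin. They rely largely on glycolysis, hold few mitochondria and make little RNA, so that in droplet data they give few unique molecular identifiers (UMIs, 1 per captured RNA molecule) and few genes. In tumors they are known in both immune-stimulating and immune-suppressing states.

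The cluster name could not be checked against genes. For each cell the data used here gave its cluster, group, UMIs, number of genes detected and percentage of UMIs from mitochondrial genes. They held no gene expression. S100a8 and S100a9, which encode the calprotectin of neutrophil cytosol, are among the leading genes the authors list for the cluster, with Retnlg, Ngp and Lcn2, other neutrophil genes. Csf3r, the receptor for the growth factor G-CSF, is not on that list. Levels of these genes were not analysed here. The median share of mitochondrial UMIs was lower in neutrophils than in any of the other 19 clusters, at 0.443% for Cyp51-KO cells (95% interval 0.403 to 0.504%) and 0.167% for sg-Ctrl cells (0.142 to 0.20%). The next lowest cluster was Intestinal_cell, at 0.629% and 0.171%, the latter within the interval of sg-Ctrl neutrophils. A low mitochondrial share therefore does not establish the name.

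The cells were tied to a group and to none of its 2 samples, so each group counted as 1 sample and no difference was tested. All intervals are exact, at the 95% level, and cover counting error over cells only, not differences between tumors or libraries. A range beside a log2 ratio or a difference was taken from the far bounds of both groups' intervals. Fewer UMIs per cell can come from less RNA per cell or from lower capture or sequencing depth, which cannot be told apart here. Of the 19 other clusters, 18 had lower median UMIs in Cyp51-KO tumors (median log2 ratio -0.64, range -1.18 to 0.19).

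Over all deposited cells, neutrophils had nearly the same median number of UMIs in both groups, but the cells around that median differed. Cyp51-KO neutrophils had a median of 4040 UMIs (3033 to 4986) and sg-Ctrl neutrophils one of 3903 (3691 to 4195), a log2 ratio of 0.05. This near equality depended on which cells were kept: the log2 ratio was 0.51 (0.15 to 0.87) over cells with at least 1000 UMIs and no more than 2.5% mitochondrial UMIs, and -0.22 (-0.51 to 0.39) without the 5% of neutrophils with the most UMIs. In Cyp51-KO tumors the cells ran from 520 to 73361 UMIs, with the 25th percentile at 1338 (1205 to 1522) and the 75th at 11381.5 (9928 to 13679). In sg-Ctrl tumors they ran from 539 to 46923 UMIs, with the 25th percentile at 2425.5 (2283 to 2701) and the 75th at 6137 (5772 to 6917). Both ends of the Cyp51-KO cells thus lay farther from the median, one toward fewer and the other toward more UMIs. The 75th percentile was 8.51 times the 25th in Cyp51-KO and 2.53 times in sg-Ctrl neutrophils, a log2 ratio of these ratios of 1.75 (1.11 to 2.41). In Cyp51-KO tumors no other cluster was spread as widely, the next being Intestinal_cell at 5.12 times. In sg-Ctrl tumors 2 clusters were wider than neutrophils and 17 narrower.

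Cyp51-KO neutrophils lay mostly under 2000 UMIs or at 8000 UMIs and more, whereas most sg-Ctrl neutrophils lay in between. Whether the low and high cells form separate groups was not tested. Under 2000 UMIs lay 212 Cyp51-KO cells (38.5%, 34.4 to 42.7%) and 72 sg-Ctrl cells (16.1%, 12.8 to 19.8%). From 2000 up to 8000 UMIs lay 152 Cyp51-KO cells (27.6%, 23.9 to 31.5%) and 300 sg-Ctrl cells (67.1%, 62.5 to 71.5%). At 8000 UMIs or more lay 187 Cyp51-KO cells (33.9%, 30.0 to 38.1%) and 75 sg-Ctrl cells (16.8%, 13.4 to 20.6%). The intervals were separate in all of these ranges. In bands that double in width, Cyp51-KO cells numbered 134 from 1000 to 2000 UMIs, 62 from 2000 to 4000, 90 from 4000 to 8000 and 96 from 8000 to 16000, with the dip where sg-Ctrl tumors had most of their cells (49, 157, 143 and 50). Cells with 16000 UMIs or more were 16.5% of Cyp51-KO neutrophils (91 cells, 13.5 to 19.9%) and 5.59% of sg-Ctrl neutrophils (25 cells, 3.65 to 8.15%), and they held 56.7% and 24.4% of all neutrophil UMIs. Whether the low and high cells came from different libraries cannot be told apart, and doublets, which can have high UMIs, were not called here.

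**Figure D1:**
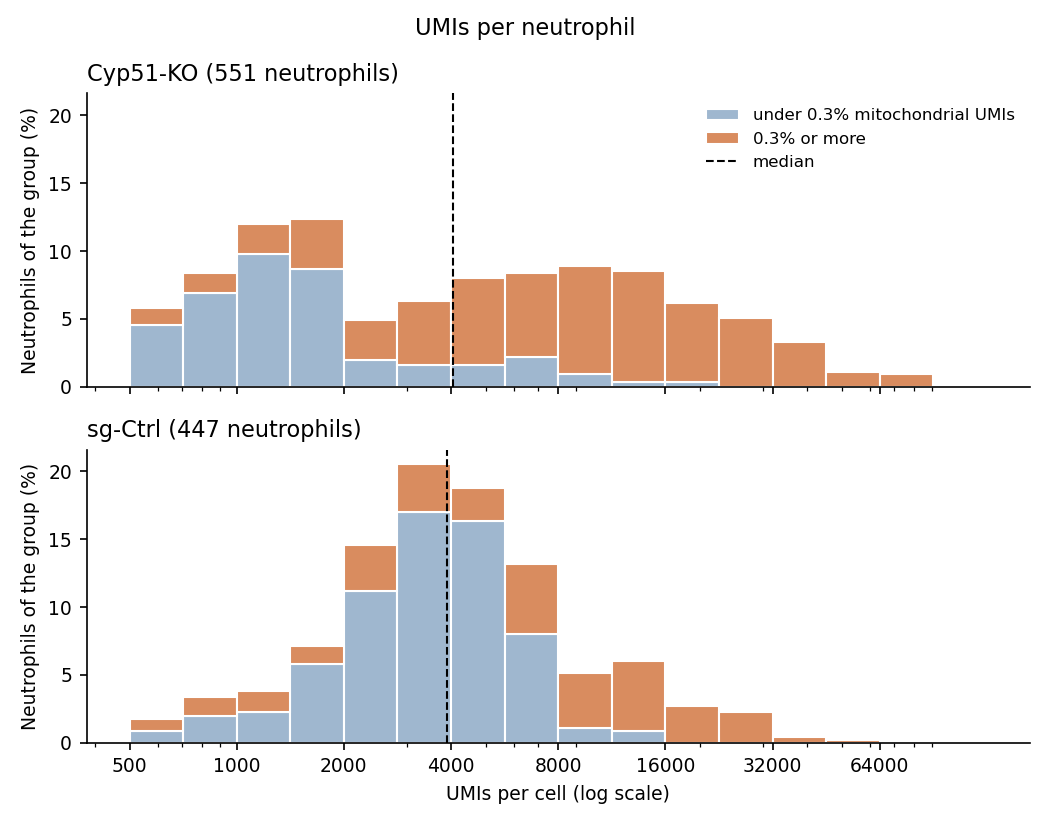
UMIs per neutrophil (horizontal axis, log scale) against the percentage of the group's neutrophils in each bin (vertical axis), for 551 Cyp51-KO cells (top) and 447 sg-Ctrl cells (bottom). Bars are stacked by the share of mitochondrial UMIs, under 0.3% (blue) or 0.3% and more (orange), and the dashed line is the median. The medians, 4040 and 3903, nearly coincide, but the Cyp51-KO cells lie on both sides of the range from 2000 to 4000 UMIs and the sg-Ctrl cells within and next to it.

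No other myeloid cluster went from lower to higher UMIs in this way. In neutrophils the log2 ratio of UMIs, Cyp51-KO over sg-Ctrl, was -0.77 at the 10th percentile, -0.86 at the 25th, 0.05 at the median, 0.89 at the 75th and 0.93 at the 90th. At the 75th percentile the cluster named Macrophage had a log2 ratio of -0.29, Monocyte -0.44, Mast_cell -0.26 and cDC -0.41. At the 25th percentile they had -0.74, -0.65, -0.84 and -0.85. Macrophage alone was higher at the 10th percentile, at 0.54. The low end of neutrophils therefore differed about as much as that of the other myeloid cells, and the high end went the other way.

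**Figure D2:**
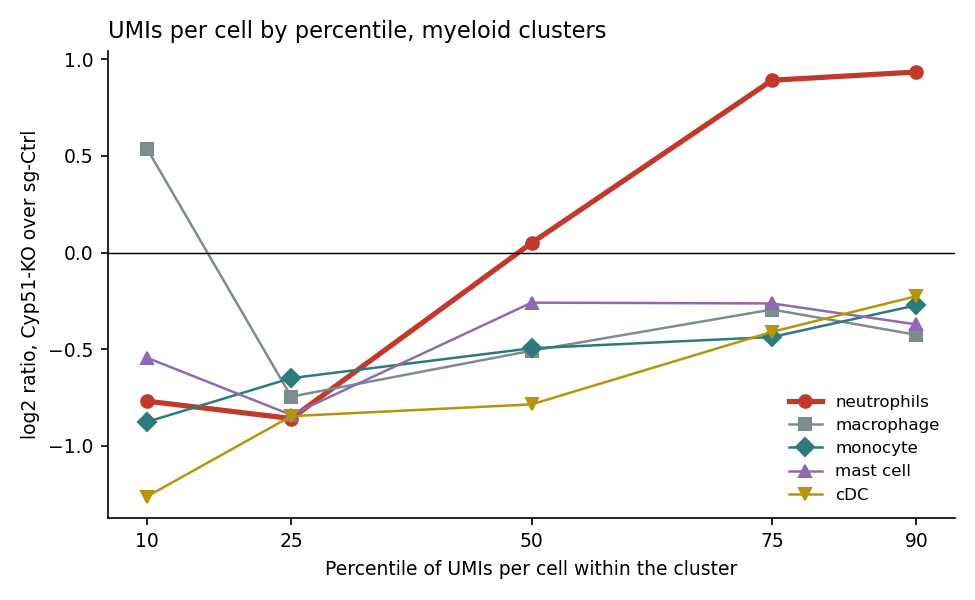
The log2 ratio of UMIs per cell, Cyp51-KO over sg-Ctrl (vertical axis), at the 10th, 25th, 50th, 75th and 90th percentile of the cells of each myeloid cluster (horizontal axis), 1 line per cluster. Neutrophils (thick red line) go from -0.77 to 0.93, and at the 75th and 90th percentile the other 4 clusters stay below 0.

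Neutrophils detected more genes in Cyp51-KO tumors only in the middle of the UMI range. The median Cyp51-KO cell detected 1330 genes (1129 to 1470) and the median sg-Ctrl cell 983 (942 to 1016), a log2 ratio of 0.44 (0.15 to 0.64). Since genes detected follow UMIs closely (Pearson r of the log10 values 0.98 over 551 Cyp51-KO cells and 0.94 over 447 sg-Ctrl cells, measures that share each cell's library and depth), the groups were compared at like UMIs. From 2000 to 4000 UMIs the median was 1075.5 genes in 62 Cyp51-KO and 841 in 157 sg-Ctrl cells, a log2 ratio of 0.35 (0.14 to 0.50). From 4000 to 8000 UMIs it was 1624.5 in 90 and 1165 in 143 cells, a log2 ratio of 0.48 (0.35 to 0.60). In the other 4 bands with at least 10 cells in each group the log2 ratio was between -0.13 and -0.08, with overlapping intervals. Averaged over the 6 bands it was 0.07. Here and in the later comparisons at like UMIs, a band spans a doubling of UMIs. Differences in UMIs between groups or clusters within a band were not examined.

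The mitochondrial share followed the same bands. From 2000 to 4000 UMIs its median was 0.530% for Cyp51-KO neutrophils and 0.126% for sg-Ctrl neutrophils, and from 4000 to 8000 UMIs 0.484% and 0.154%. Under 2000 UMIs it was 0.0902% (0.0643 to 0.118%) and 0.128% (0.0617 to 0.219%), and at 8000 UMIs or more 0.660% (0.624 to 0.713%) and 0.786% (0.674 to 0.947%), with overlapping intervals at both ends. Low-UMI neutrophils of both groups thus had few mitochondrial UMIs and high-UMI neutrophils more, and the groups differed in the cells between. Summed over all neutrophils, where the largest cells weigh most, mitochondrial UMIs were 0.742% of all UMIs for Cyp51-KO (35754 UMIs) and 0.610% for sg-Ctrl (15474 UMIs).

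**Figure D3:**
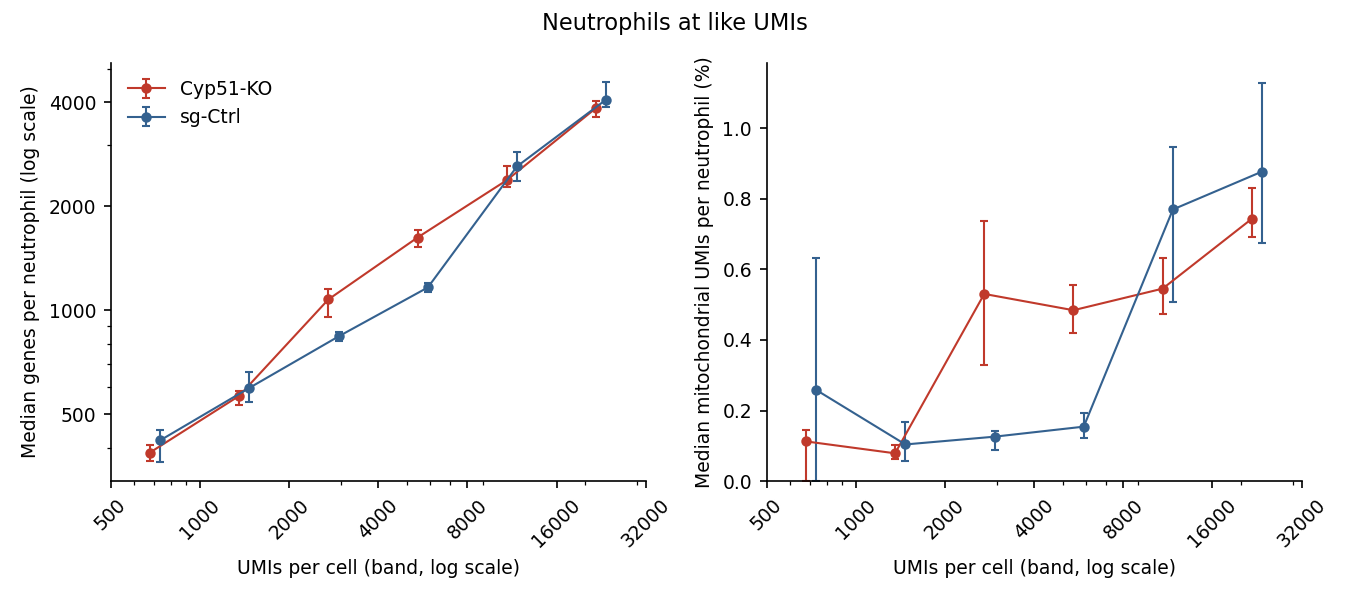
Median genes detected per neutrophil (left, log scale) and median percentage of mitochondrial UMIs (right), against UMIs per cell in bands that double from 500 UMIs (horizontal axes, log scale), with points at band centres moved slightly apart. Bars are exact 95% intervals over cells. Cyp51-KO lies above sg-Ctrl with separate intervals in both panels from 2000 to 8000 UMIs, and the intervals overlap in the other 4 bands.

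The neutrophils were therefore divided at 0.3% mitochondrial UMIs, a limit chosen after the values were seen. Below it, most sg-Ctrl cells were mid-range, with 126 from 2000 to 4000 UMIs and 109 from 4000 to 8000. Most Cyp51-KO cells below it were at the low end, with 63 from 500 to 1000 UMIs and 102 from 1000 to 2000. The sides of the limit are thus not the ends of the UMI range in both groups. The divided cells are ranges of a measure and not cell types, and 42 Cyp51-KO and 45 sg-Ctrl cells lay within 0.05 percentage points of the limit. Few of the other myeloid cells lay below the limit, since 97.1 to 100% per cluster and group were at or above it. Neutrophils lay on both sides, with 61.0% of Cyp51-KO and 34.5% of sg-Ctrl cells at or above it. In a cell near 500 UMIs, 2 mitochondrial UMIs already pass the limit, so it is coarse there.

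Neutrophils below 0.3% were fewer and poorer in UMIs in Cyp51-KO tumors. They were 215 of 551 Cyp51-KO cells (39.0%, 34.9 to 43.2%) and 293 of 447 sg-Ctrl cells (65.5%, 60.9 to 69.9%). The median Cyp51-KO cell among them had 1278 UMIs (1190 to 1476) and the median sg-Ctrl cell 3548 (3231 to 3830), a log2 ratio of -1.47 (-1.69 to -1.13). The middle 50% of these cells did not overlap, with the 75th percentile of Cyp51-KO at 1901 UMIs and the 25th of sg-Ctrl at 2343 UMIs. Median genes were 525 (499 to 571) and 889 (850 to 935), a log2 ratio of -0.76 (-0.91 to -0.57). Cells under 1000 UMIs were 29.3% of these Cyp51-KO neutrophils (63 cells) and 4.44% of the sg-Ctrl ones (13 cells). The UMI gap was greater than the median gap of the 19 other clusters (-0.64) and than that of each whole cluster, of which the lowest was -1.18. That sets a part of the neutrophils beside whole clusters, and the whole neutrophil cluster had a log2 ratio of 0.05. The gap itself sets mostly low-UMI Cyp51-KO cells beside sg-Ctrl cells mostly from the middle of the UMI range. The dividing measure itself rose with UMIs (Pearson r with log10 UMIs 0.27 in Cyp51-KO and 0.23 in sg-Ctrl neutrophils).

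Neutrophils at or above 0.3% were more of the cluster in Cyp51-KO tumors, with UMIs that overlapped between groups. They were 336 of 551 cells (61.0%, 56.8 to 65.1%) and 154 of 447 cells (34.5%, 30.1 to 39.1%). The medians were 8688 UMIs (7396 to 10002) for Cyp51-KO and 6459 UMIs (5112 to 8350) for sg-Ctrl, a log2 ratio of 0.43 (-0.18 to 0.97). Median genes were 2110 (1912 to 2286) and 1646.5 (1356 to 2049), a log2 ratio of 0.36 (-0.10 to 0.75). On this side the clusters named Macrophage (-0.49, -0.77 to -0.28) and Monocyte (-0.48, -0.75 to -0.31) had lower UMIs in Cyp51-KO tumors.

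At like UMIs, the groups divided differently from 2000 to 8000 UMIs. From 2000 to 4000 UMIs, cells at or above 0.3% were 67.7% (54.7 to 79.1%) of Cyp51-KO and 19.7% (13.8 to 26.8%) of sg-Ctrl neutrophils. From 4000 to 8000 UMIs they were 76.7% (66.6 to 84.9%) and 23.8% (17.1 to 31.6%). In the 4 outer bands with at least 10 cells in each group the intervals overlapped. From 500 to 1000 UMIs the shares were 19.2% (11.2 to 29.7%) and 43.5% (23.2 to 65.5%), the lower value in Cyp51-KO. From 1000 to 2000 UMIs they were 23.9% and 26.5%, from 8000 to 16000 UMIs 92.7% and 82.0%, and from 16000 to 32000 UMIs 96.8% and 100%. Of the 26.5 percentage points by which cells at or above 0.3% were more frequent in Cyp51-KO neutrophils, 17.5 points were cells with 8000 UMIs or more (178 of 551 against 66 of 447 cells), 5.60 points cells from 2000 to 8000 UMIs (111 and 65 cells) and 3.38 points cells under 2000 UMIs (47 and 23 cells). Counted this way, most of the difference lay in cells with 8000 UMIs or more. These points combine how many cells lay in a range with the part of them at or above 0.3%, and the contributions were not separated. At like UMIs the groups divided most differently from 2000 to 8000 UMIs.

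Within either side, the groups were compared once more for genes at like UMIs. At or above 0.3% the intervals overlapped in all 6 bands compared, with log2 ratios from -0.15 to 0.21. Below 0.3% they overlapped in 3 of 4 bands. The exception was 4000 to 8000 UMIs, at 1482 genes (1400 to 1673) over 21 Cyp51-KO cells and 1138 genes (1070 to 1171) over 109 sg-Ctrl cells, a log2 ratio of 0.38 (0.26 to 0.64).

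In most UMI bands neutrophils gave fewer genes than the macrophage and monocyte clusters, with the larger gaps below 0.3%. From 4000 to 8000 UMIs in sg-Ctrl tumors, neutrophils below 0.3% had a median of 1138 genes, those at or above it 1425 (1210 to 1715), and the cells of both reference clusters together 2006 (1914 to 2113). In Cyp51-KO tumors the values were 1482, 1645 (1527 to 1789) and 1883 (1820 to 1953), which lie closer together. From 2000 to 4000 UMIs, Cyp51-KO neutrophils at or above 0.3% had 1139.5 genes (976 to 1268) and the reference cells 1128.5 (1072 to 1306), a log2 ratio of 0.01. The sg-Ctrl neutrophils at or above 0.3% had 1006 (890 to 1107) and their reference cells 1239 (1116 to 1345), a log2 ratio of -0.30. The part of RNA from neighbouring cells in these values was not tested.

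**Figure D4:**
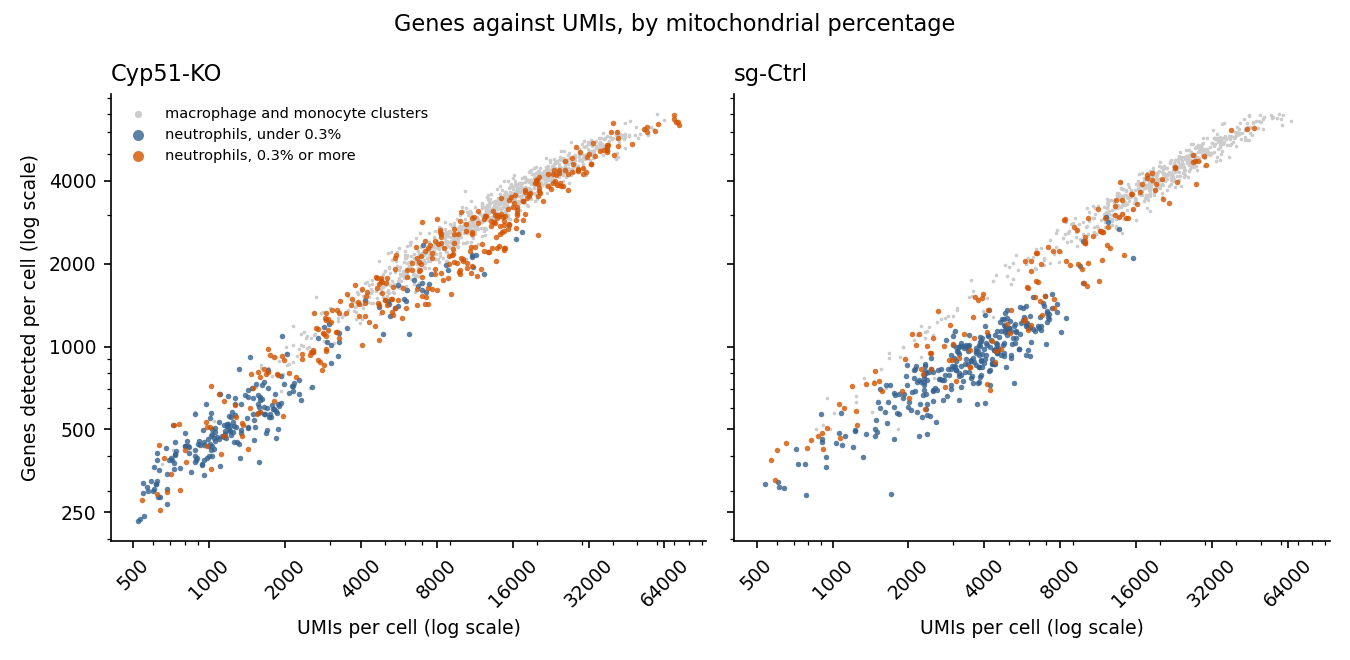
Genes detected (vertical axis) against UMIs (horizontal axis, both log scales), 1 point per cell, for Cyp51-KO (left) and sg-Ctrl tumors (right). Blue points are neutrophils under 0.3% mitochondrial UMIs, orange points neutrophils at 0.3% or more, and grey points cells of the macrophage and monocyte clusters. From 4000 to 8000 UMIs most sg-Ctrl neutrophils lie below the grey cells (median 1138 genes in the blue points against 2006), and Cyp51-KO neutrophils lie nearer to them (1482 and 1645 against 1883).

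Shares of myeloid cells were also taken for each side of the limit, as a description: the limit was chosen after the values were seen and lies between the medians of the groups, 0.167% and 0.443%, so the choice favours a lower share below it and a higher one above it in Cyp51-KO tumors. For all neutrophils the shares were 28.3% and 37.2%, a log2 ratio of -0.39 (-0.60 to -0.18). Neutrophils below 0.3% were 11.0% (9.69 to 12.5%) and 24.4% (22.0 to 26.9%) of myeloid cells, a log2 ratio of -1.14 (-1.47 to -0.81). Neutrophils at or above 0.3% were 17.3% (15.6 to 19.0%) and 12.8% (11.0 to 14.8%), a log2 ratio of 0.43 (0.07 to 0.79). With the limit at 0.2%, the log2 ratio at or above it was 0.18 (-0.13 to 0.51), with a range that includes 0, and that below it was -1.15 (-1.52 to -0.78).

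Among all immune cells, a total to which sorted T cells had been added in a set part, the whole cluster had a log2 ratio of 0.00. Neutrophils below 0.3% were 2.72% of the immune cells of Cyp51-KO and 4.58% of those of sg-Ctrl tumors, a log2 ratio of -0.75 (-1.11 to -0.40). Neutrophils at or above 0.3% were 4.25% and 2.41%, a log2 ratio of 0.82 (0.44 to 1.21).

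**Figure D5:**
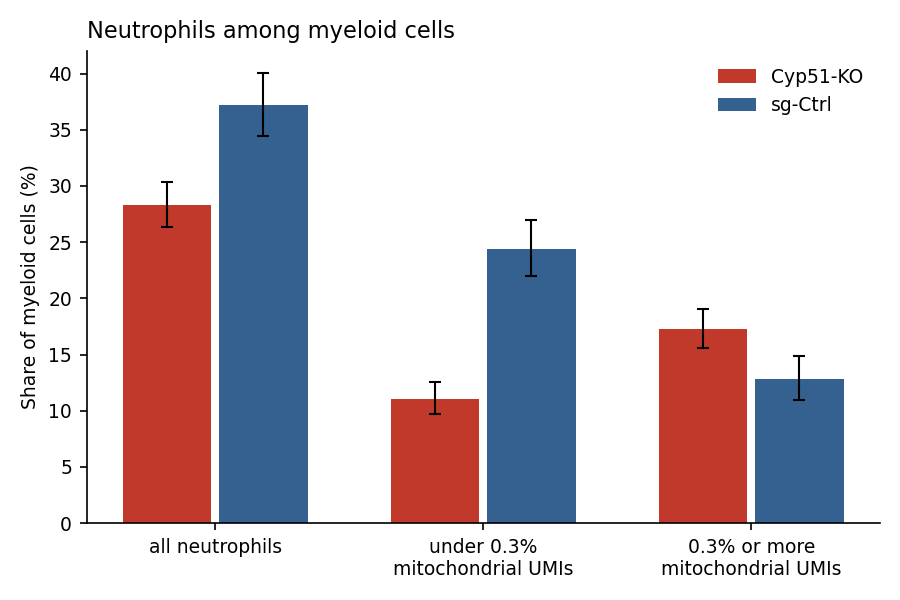
Neutrophils as a percentage of the cells of the 5 myeloid clusters (vertical axis), for all neutrophils and for those under and at or above 0.3% mitochondrial UMIs, in Cyp51-KO (red) and sg-Ctrl tumors (blue). Bars are shares and error bars exact 95% intervals over cells. The shares under the limit, 11.0% and 24.4%, lie apart in one direction and those at or above it, 17.3% and 12.8%, in the other.

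The authors kept cells with at least 500 UMIs, and Cyp51-KO neutrophils lay nearer to that minimum. Cells under 1000 UMIs were 14.2% of Cyp51-KO neutrophils (78 cells, 11.4 to 17.3%) and 5.15% of sg-Ctrl neutrophils (23 cells, 3.29 to 7.62%). Cells of Mast_cell, the other low-UMI myeloid cluster, were under 1000 UMIs in 29.6% and 13.6%. As an alternative, the minimum was raised for all sg-Ctrl myeloid cells to 1388.11 UMIs. The shift was the UMI gap of neutrophils below 0.3%, a choice made after the values were seen. It is not a like place for other cells, since that log2 ratio was 0.43 for neutrophils at or above 0.3%. Over the 19 other clusters its median was -0.64. Raising the minimum left out 87 sg-Ctrl myeloid cells, so the total behind the shares was cut too. Of these, 40 were neutrophils, 23 of them among the 293 below 0.3%. The log2 ratios of the share of myeloid cells were then -0.37 for all neutrophils, -1.13 for those below 0.3% and 0.49 for those at or above it. With so few cells left out, these values could change little, so they do not show what the minimum does to the shares. How many cells fell under 500 UMIs in either group was not analysed here.

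Neutrophils without any mitochondrial UMI were 14.2% of the Cyp51-KO cells (78 cells, 11.4 to 17.3%) and 9.17% of the sg-Ctrl cells (41 cells, 6.66 to 12.2%), with overlapping intervals. The direction turned with the limit: the difference, Cyp51-KO minus sg-Ctrl, was 4.98 percentage points for cells with none and -12.2 points (-20.2 to -4.16) for cells under 0.1%. Among cells with at least 1000 UMIs they were 9.73% (46 of 473 cells) and 7.78% (33 of 424 cells). In the other 4 myeloid clusters such cells were 0 to 0.712%. Within the myeloid compartment, nearly all cells without a mitochondrial UMI were thus neutrophils in both groups.

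Set against other cells of the tumor, neutrophils kept a similar ratio to the macrophage cluster, with overlapping intervals, and had lower ratios to the other 3 myeloid clusters. Per 100 cells of Macrophage, Cyp51-KO tumors gave 175 neutrophils (152 to 202) and sg-Ctrl tumors 171 (147 to 200), a log2 ratio of 0.03. Per 100 cells of Monocyte there were 95 (84.4 to 107) and 159 (137 to 185), a log2 ratio of -0.74. Macrophages and monocytes are phagocytes that share a lineage, and against both clusters together there were 61.6 and 82.5 neutrophils per 100 cells, a log2 ratio of -0.42 (-0.76 to -0.08). Per 100 mast cells, which are granule-laden cells of tissues, there were 136 and 264, a log2 ratio of -0.96 (-1.41 to -0.51). Per 100 cells of cDC, named for conventional dendritic cells, the log2 ratio was -0.84 (-1.65 to -0.06). Against NK, B and plasma cells together, there were 37.1 and 39.0 neutrophils per 100 cells, a log2 ratio of -0.07 (-0.38 to 0.23).

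Barcodes were shared between the groups by 196 cells (98 barcodes). Neutrophils were 5 of these 98 cells in Cyp51-KO and 6 of 98 in sg-Ctrl, and 1 barcode was a neutrophil in both groups. These counts are close to the neutrophil share of all cells, 5.26% in Cyp51-KO and 6.22% in sg-Ctrl.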

How the data were processed

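Neutrophils of Cyp51-KO and sg-Ctrl CT26 tumors were taken from 1 table with a row per cell, 4 samples in all. Reads had been aligned by the authors with Cell Ranger 7.0 on GRCm38, per the submitters' processing notes and the methods. In R 4.2.0 with Seurat 4.2.0 the authors merged the samples and filtered cells by mitochondrial share and by lower and upper limits on genes and UMIs. They normalized with SCTransform (regressing out the mitochondrial percentage), clustered the cells and left out some very small clusters of the control group. Neutrophils and macrophage or monocyte-like cells were clustered a second time. The sources used here do not give the treatment of doublets, and none were called. The deposited UMI counts per cell ran from 500 to 99951, the deposited mitochondrial percent reached 4.98, and genes detected per cell were deposited beside them. The deposited genes after SCTransform are a model output, treated as a score, and were used only as an alternative. UMI totals after SCTransform were not used. The group sums were 156168274 UMIs in Cyp51-KO and 95249095 UMIs in sg-Ctrl.

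Groups came from the table's group column, whose name WT was read as sg-Ctrl from the legends. Cells were tied to no sample, so each group was 1 sample, with no test and no p-value. Shares had exact Clopper-Pearson intervals and percentiles exact intervals from the ordered cells. Mitochondrial UMIs, as percent times UMIs, came within 4.6e-07 of whole numbers. Bands with at least 10 cells in each group were compared. Python 3.11.15, NumPy 2.4.6, pandas 2.3.3, SciPy 1.17.1 and Matplotlib 3.10.9 were used, and intervals and band ratios were tested on simulated data. The cluster, its marker genes and the measures were chosen with earlier results of these data known. The division at 0.3%, the ratio of percentiles, the SCTransform genes and the raised UMI minimum were chosen after the data were seen. Genes named are the 3 markers S100a8, S100a9 and Csf3r and leading genes the authors list, without values.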

Additional observations from a re-analysis of the deposited data

How the results depend on the processing

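Of 46 alternative values for 12 results, 35 stayed within their interval and 44 kept their sign. A stricter filter, which kept cells of 1000 UMIs or more with no more than 2.5% from mitochondria, moved the log2 ratio of median UMIs from 0.05 to 0.51, that of median genes from 0.44 to 0.69, and that of the share of neutrophils below 0.3% from -1.14 to -1.54. Without the 5% of neutrophils with the most UMIs, median UMIs had a log2 ratio of -0.22. Over immune cells, the log2 ratio of the share was -0.0039 for all neutrophils, -0.75 below 0.3% and 0.82 at or above it. The difference in mitochondrial percentage, 0.276 at the median, was 0.148 for the mean over cells and 0.132 for summed UMIs. The difference in cells under 1000 UMIs, 9.01 percentage points, was 22.4 under 2000 UMIs. Cells with no mitochondrial UMI were 4.98 percentage points more frequent in Cyp51-KO tumors, but those under 0.1% gave a difference of -12.2. The difference at or above 0.3%, 26.5 points, was 50.3 with at least 2000 UMIs. At a limit of 0.2% the log2 ratio of the share at or above was 0.18 (-0.13 to 0.51). Causes were not tested. No paired analysis was possible because cells were tied to a group and not to a sample, so leaving out each library was not possible either.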
